A study of Mus musculus with 12 samples.

Results

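Epithelial and mesenchymal identity genes encode the keratins, junction proteins, surface proteases and transcription factors by which an epithelial cell is recognised, and the filament, matrix and regulator genes that mark a mesenchymal cell. A list of 47 such genes, 36 epithelial (Cdh1 to Prss8) and 11 mesenchymal (Cdh2 to Acta2), was looked up by symbol in the 3 deposited tables of the series, which together list 12484 genes. The rule uses gene names and no threshold on a measured value, although the list was drawn up with earlier results of these data known. The cells were KPC cells, a murine pancreatic ductal adenocarcinoma (PDAC) line derived from a tumor of the KPC mouse model, so that every group shares the mutations of that tumor. The shRNAs against CTR9 and CDC73 were brought in by lentivirus with puromycin selection, and how the shMYC and shLuciferase lines were selected is not given in the sources used here. All groups were given doxycycline (1 µg/ml in the labels) for 48 h to switch on a short hairpin RNA: shCTR9, shCDC73 or shMYC, or shLuciferase, a control hairpin against luciferase. Each group has 3 poly(A) RNA-seq libraries, 12 in all. Each gene was depleted with 1 hairpin in 1 line, so that line, hairpin and depleted gene cannot be told apart, and the sources used here do not state whether the lines are pools or clones. CTR9 and CDC73 are subunits of the PAF1 complex (PAF1c), which travels with elongating RNA polymerase II, and MYC is a transcription factor that binds E-boxes with its partner MAX. The comparisons ask how loss of either PAF1c subunit or of MYC changes the mRNA of these cells.

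Epithelial cells are tied to each other by E-cadherin (Cdh1), by desmosomes that anchor keratin filaments, and by tight junctions that seal the sheet and separate its apical from its basal side. During an epithelial to mesenchymal transition, transcription factors of the ZEB, SNAI and TWIST families silence Cdh1 and other epithelial genes. ZEB and SNAI factors bind the E-box CACCTG in the promoters of such genes. Vimentin, N-cadherin and fibronectin rise. Factors of the GRHL, OVOL, ELF and KLF families and the ESRP splicing regulators act on the epithelial side. Pancreatic ductal cancer cells often express both programs at once, and the keratins KRT8, KRT18 and KRT19 are usual marks of their epithelial character.

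Of the 47 genes, 26 were listed in all 3 tables, 5 in some, and 16 in none. The genes listed in no table, and not analysed here, were Epcam, Cldn1, Cldn3, Cldn4, Cldn7, Esrp1, Grhl2, Ovol1, Dsg2, Dsc2, St14 and Spint1 of the epithelial set and Zeb2, Snai1, Twist1 and Acta2 of the mesenchymal set. The tables hold genes that passed a minimum of 5 reads set by the authors. Marveld3 and Prss8 were listed for shMYC only, Marveld2 for both PAF1c depletions but not for shMYC, and Krt7 and Cdh16 for shCTR9 and shMYC but not for shCDC73. Krt7 and Cdh16 were among only 7 genes missing from the shCDC73 table of the 8843 that had at least 10 CPM (reads scaled to library size) in the control cells of both other tables. No value of either gene after CDC73 depletion is therefore given. The epithelial markers Krt8, Krt18, Krt19 and Cdh1 were listed at 163 CPM or more in every group, whereas Epcam, also an epithelial marker, was in no table. The ductal keratin gene Krt7 had 6.98 CPM in shMYC cells, against 211 CPM in control cells. In shCTR9 cells Krt7 had 296 CPM, against 191 CPM in control cells.

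Each table has the log2 fold change, the mean log2 CPM and the likelihood ratio of a gene, and no value per library, so that the spread of the 3 libraries of a gene cannot be shown. Levels in depleted and control cells were computed from the mean and the fold change. Standard errors (SE) are approximate, from the fold change and its likelihood ratio, and follow the mean expression closely: it stood within 20% of the running median for 99.9%, 98.7% and 95.5% of genes in the comparisons of shCTR9, shCDC73 and shMYC. A gene's own spread between libraries therefore hardly enters the test. The hairpins lowered their targets: Ctr9 had 2.83 CPM in shCTR9 cells and 30.2 CPM in shLuciferase cells, Cdc73 had 3.19 CPM in shCDC73 cells and 40.7 CPM in shLuciferase cells, and Myc had 57.4 CPM in shMYC cells and 178 CPM in shLuciferase cells. All 3 comparisons appear to use the same control libraries, but the control level of a gene was a median of 0.14 to 0.15 (log2) lower in the PAF1c tables than in the shMYC table, so the control level of each table is given beside its own depleted level.

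The promoters below belong to the members on which the results turn: 3 clustered keratin genes, the transcription factor genes Elf3 and Klf4, and the tight junction genes F11r and Ocln. Each line is the stretch of 250 bases before a transcription start in RefSeq (GRCm38), 5′ to 3′ on the strand of the gene, with the E-boxes CACCTG (or CAGGTG on the other strand) and CACGTG in capitals. RefSeq has 2 starts for Ocln, and the stretch shown was chosen because it holds CAGGTG before the start (at −213 and −68). The other Ocln start has CAGGTG only after it, at position 8.
Krt7: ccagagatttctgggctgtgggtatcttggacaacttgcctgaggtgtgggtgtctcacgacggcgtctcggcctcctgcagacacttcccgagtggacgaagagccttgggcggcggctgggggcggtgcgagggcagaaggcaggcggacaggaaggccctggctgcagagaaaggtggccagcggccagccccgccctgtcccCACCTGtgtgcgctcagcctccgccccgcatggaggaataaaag
Krt8: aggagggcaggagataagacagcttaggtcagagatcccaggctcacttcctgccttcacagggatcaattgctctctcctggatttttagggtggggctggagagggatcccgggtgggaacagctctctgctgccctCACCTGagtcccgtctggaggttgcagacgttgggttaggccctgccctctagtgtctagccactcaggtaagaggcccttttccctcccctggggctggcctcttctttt
Krt18: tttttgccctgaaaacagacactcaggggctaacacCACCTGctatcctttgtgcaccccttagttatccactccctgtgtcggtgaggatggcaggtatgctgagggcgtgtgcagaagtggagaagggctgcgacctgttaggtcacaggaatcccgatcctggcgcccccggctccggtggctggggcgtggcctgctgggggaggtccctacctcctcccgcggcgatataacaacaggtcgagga
Elf3: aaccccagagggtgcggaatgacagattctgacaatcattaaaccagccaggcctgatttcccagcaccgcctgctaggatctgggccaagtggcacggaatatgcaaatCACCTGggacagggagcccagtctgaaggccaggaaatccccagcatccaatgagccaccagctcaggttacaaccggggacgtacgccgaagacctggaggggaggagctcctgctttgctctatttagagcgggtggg
Klf4: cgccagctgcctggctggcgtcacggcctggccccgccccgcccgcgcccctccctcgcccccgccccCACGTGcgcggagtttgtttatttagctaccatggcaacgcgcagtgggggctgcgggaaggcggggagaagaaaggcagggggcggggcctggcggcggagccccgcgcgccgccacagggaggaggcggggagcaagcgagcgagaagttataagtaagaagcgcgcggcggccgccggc
F11r: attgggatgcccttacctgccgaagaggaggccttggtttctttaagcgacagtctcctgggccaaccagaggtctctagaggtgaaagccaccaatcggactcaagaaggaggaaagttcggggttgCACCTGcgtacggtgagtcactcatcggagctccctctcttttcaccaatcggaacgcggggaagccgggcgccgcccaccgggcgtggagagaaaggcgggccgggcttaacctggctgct
Ocln: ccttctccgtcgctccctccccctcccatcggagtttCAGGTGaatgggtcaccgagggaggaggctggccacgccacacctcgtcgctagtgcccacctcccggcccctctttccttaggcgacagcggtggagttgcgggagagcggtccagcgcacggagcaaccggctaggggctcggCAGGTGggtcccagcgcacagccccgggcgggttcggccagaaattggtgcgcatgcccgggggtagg

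These stretches lie at chr15:101412153-101412402 on the plus strand (Krt7), chr15:102004343-102004592 on the minus strand (Krt8), chr15:102027966-102028215 on the plus strand (Krt18), chr1:135258473-135258722 on the minus strand (Elf3), chr4:55532476-55532725 on the minus strand (Klf4), chr1:171437311-171437560 on the plus strand (F11r) and chr13:100552499-100552748 on the minus strand (Ocln). The Krt8 and Krt18 genes, whose products pair in 1 filament, are neighbors on chromosome 15 (Krt8 at 101996711 to 102004342, Krt18 at 102028216 to 102032026), and Krt7 lies on the same chromosome at 101412403 to 101427806. The E-box CACCTG stands in a window of 250 bases before to 50 bases after a start in 15 of the 21 epithelial members found in the RefSeq promoter table (71.4%), in 2 of 6 mesenchymal members, and in 22.6% of all 27025 genes of that table. Of the 15 epithelial members, 4 (Cldn3, Cldn4, Cldn7 and Epcam) were listed in no expression table. The E-box bound by MYC with MAX, CACGTG, stands in 4 of 27 members (Crb3, Epcam, Klf4 and Tjp3), against 8.09% of all genes. The AP-1 motif TGANTCA stands in 4 of 27 members against 8.97% of all genes, and the GRHL motif AACCGGTT in none of 27 members against 0.174% of all genes. All motifs were read on both strands, no motif holds another, and genes with several starts count once. A match of these letters is a description of the window and not a binding site.

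CTR9 depletion raised most of the measured epithelial genes, CDC73 depletion lowered 10 of the 20 listed there, and MYC depletion moved as many up as down. After CTR9 depletion 13 of 22 listed epithelial members were higher and 2 lower at an adjusted p below 0.05 (Benjamini-Hochberg, the authors' likelihood ratio test), where 31.3% of all 11982 genes of the table were higher and 31.2% lower. After CDC73 depletion 2 of 20 were higher and 10 lower, where 29.4% of all 12128 genes were higher and 31.4% lower. After MYC depletion 8 of 23 were higher and 8 lower, where 33.2% of all 12100 genes were higher and 33.8% lower, a share close to that of the members. The median log2 fold change of the epithelial members was 0.67, −0.30 and 0.03 after CTR9, CDC73 and MYC depletion, against −0.01, −0.02 and −0.00 over all genes. The 7 listed mesenchymal members had a median of 0.12, 0.55 and 0.69. Of these 7, 3 were higher and 2 lower after CTR9 depletion, 4 higher and 1 lower after CDC73 depletion, and 6 higher and 1 lower after MYC depletion.

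**Figure D1:**
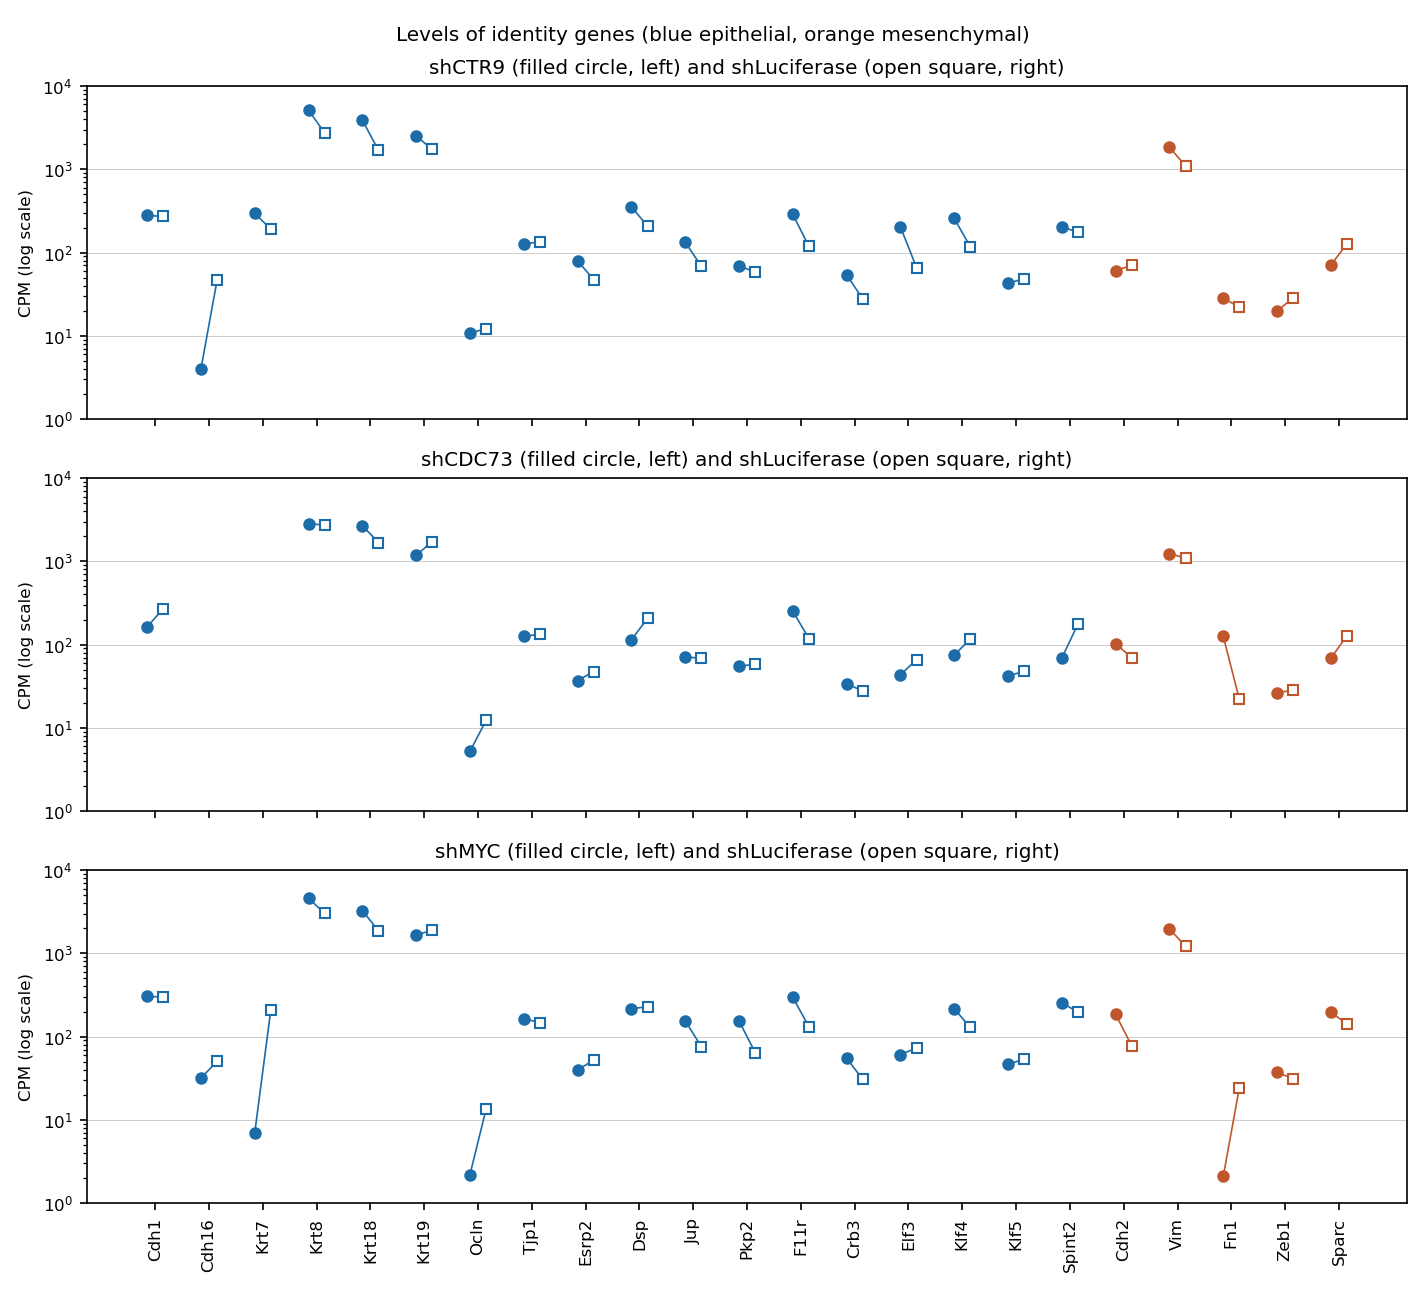
Levels in CPM (log axis) of the members with at least 10 CPM in any group, 1 panel per depletion. In each pair the filled circle on the left is the depleted group and the open square on the right its shLuciferase control, blue for epithelial and orange for mesenchymal genes. Krt8, Krt18, Krt19 and Vim stand highest, at 1097 CPM or more, and the steepest lines are those of Cdh16 after CTR9 depletion, of Krt7, Ocln and Fn1 after MYC depletion and of Fn1 after CDC73 depletion.

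Keratins 8, 18 and 19, the filament proteins of simple epithelia, were the most abundant members per length of exon, with 1542, 1295 and 1029 CPM per kb in the control cells of the shMYC table, against 256 CPM per kb for Vim and 65.3 CPM per kb for Cdh1. All 4 keratin members rose after CTR9 depletion. Krt18 rose in every depletion, with 3897 CPM in shCTR9 cells and 1691 CPM in shLuciferase cells (log2 fold change 1.20, SE 0.10), 2690 CPM in shCDC73 cells and 1681 CPM in shLuciferase cells (0.68, SE 0.16), and 3266 CPM in shMYC cells and 1861 CPM in shLuciferase cells (0.81, SE 0.09). Its partner Krt8 rose after CTR9 depletion (5119 CPM, against 2739 CPM in control cells, log2 fold change 0.90, SE 0.10) and after MYC depletion (4600 CPM, against 3020 CPM, 0.61, SE 0.10). After CDC73 depletion Krt8 had 2831 CPM, against 2727 CPM in control cells, and did not pass the test (log2 fold change 0.05, 95% interval −0.26 to 0.36). The called rise of Krt18 in that line thus came without a called change of Krt8.

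Krt19 differed in direction between the depletions. It had 2516 CPM in shCTR9 cells and 1730 CPM in shLuciferase cells (log2 fold change 0.54, adjusted p = 3.5e-07), but 1188 CPM in shCDC73 cells and 1721 CPM in shLuciferase cells (−0.53, adjusted p = 0.0012). After MYC depletion it was slightly lower, with 1648 CPM against 1910 CPM in control cells (−0.21, adjusted p = 0.032). Read against an F distribution with 1 and 4 degrees of freedom, which allows for the few libraries, neither fall of Krt19 passed (adjusted p = 0.062 after CDC73 and 0.126 after MYC depletion). The largest change of any member was that of Krt7, a keratin of ductal and glandular epithelium. Krt7 had 6.98 CPM in shMYC cells and 211 CPM in shLuciferase cells, 30.2-fold lower after MYC depletion (log2 fold change −4.92, SE 0.12, listed with a p of 0). In shCTR9 cells Krt7 rose instead, to 296 CPM, against 191 CPM in control cells (0.63, adjusted p = 2e-09). The fall of Krt7 thus stood apart from Krt8 and Krt18, which lie on the same chromosome and rose in the same shMYC cells.

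E-cadherin mRNA fell after CDC73 depletion and passed the test in neither other depletion. Cdh1 had 163 CPM in shCDC73 cells and 270 CPM in shLuciferase cells (log2 fold change −0.72, SE 0.15, adjusted p = 3e-06). In shCTR9 cells it had 280 CPM, against 271 CPM in control cells (0.04, 95% interval −0.15 to 0.24), and in shMYC cells 304 CPM, against 299 CPM (0.02, interval −0.15 to 0.20). N-cadherin, the mesenchymal cadherin Cdh2, rose after CDC73 depletion (102 CPM, against 69.7 CPM in control cells, 0.55, SE 0.15) and after MYC depletion (185 CPM, against 77.4 CPM, 1.26, SE 0.09), and had −0.21 (interval −0.43 to 0.01) after CTR9 depletion. A fall of Cdh1 beside a rise of Cdh2 was thus measured in the CDC73-depleted line, while the MYC-depleted line had the rise of Cdh2 without a called change of Cdh1. With the F distribution the rise of Cdh2 after CDC73 depletion missed the threshold (adjusted p = 0.0536). Cdh16, a cadherin first known from the kidney, fell to 3.98 CPM in shCTR9 cells, against 46.4 CPM in control cells, the largest change of a member after CTR9 depletion (−3.54, SE 0.17, 11.6-fold lower). Cdh16 fell less after MYC depletion, with 31.8 CPM against 50.3 CPM in control cells (−0.66, SE 0.15).

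**Figure D2:**
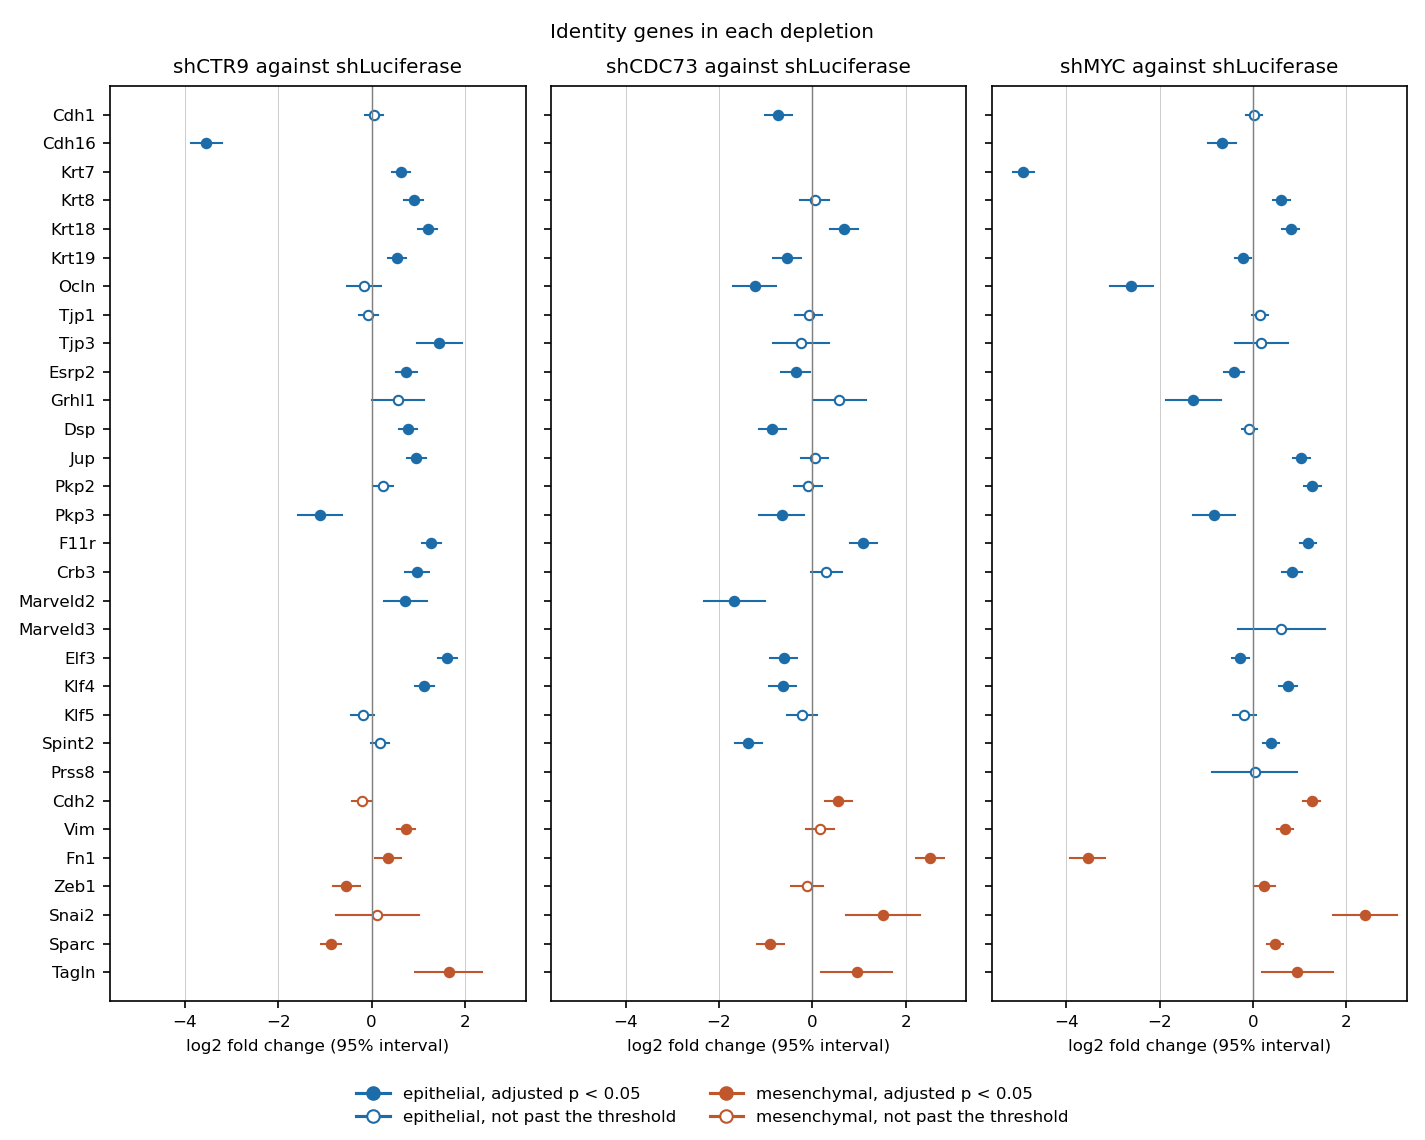
Log2 fold change of each listed member against shLuciferase (points) with its approximate 95% interval (lines), 1 panel per depletion, blue for epithelial and orange for mesenchymal genes, filled where the adjusted p was below 0.05. Blue points lie mostly right of 0 in the shCTR9 panel (13 higher, 2 lower) and mostly left of it in the shCDC73 panel (2 higher, 10 lower), and genes not listed in a table have no point there.

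F11r was the only tight junction member that rose in all 3 depletions. F11r, the immunoglobulin-like junctional adhesion molecule JAM-A, had 288 CPM in shCTR9 cells and 119 CPM in shLuciferase cells (1.28, SE 0.10), 253 CPM in shCDC73 cells and 118 CPM in shLuciferase cells (1.09, SE 0.15), and 296 CPM in shMYC cells and 131 CPM in shLuciferase cells (1.17, SE 0.09). Occludin, a membrane protein of the tight junction strand, moved the other way. Ocln had 5.23 CPM in shCDC73 cells and 12.3 CPM in shLuciferase cells (−1.23, SE 0.23), and 2.21 CPM in shMYC cells and 13.5 CPM in shLuciferase cells (−2.61, SE 0.23), while shCTR9 cells had 10.9 CPM and their controls 12.2 CPM (−0.16, interval −0.52 to 0.19). Ocln and F11r both hold CACCTG in the promoters printed above, and the part of this E-box in their changes was not tested.

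Marveld2, which encodes tricellulin, the occludin relative at corners where 3 cells meet, lies beside Ocln on chromosome 13 (Marveld2 at 100595957 to 100616971, Ocln at 100496504 to 100552718). It rose in shCTR9 cells (6.60 CPM, against 4.004 CPM in control cells, 0.72, adjusted p = 0.0042) and fell in shCDC73 cells (1.34 CPM, against 4.25 CPM, −1.67, adjusted p = 2.1e-06), and with the F distribution the rise did not pass (adjusted p = 0.0762). The scaffold genes differed from each other. Tjp3 (ZO-3) rose after CTR9 depletion (7.34 CPM, against 2.68 CPM in control cells, 1.45, SE 0.24), and had −0.24 (interval −0.84 to 0.36) and 0.18 (interval −0.38 to 0.75) after CDC73 and MYC depletion. Tjp1 (ZO-1), at 126 to 164 CPM in depleted cells, passed the test in no comparison (−0.07, −0.08 and 0.15 after CTR9, CDC73 and MYC depletion, with all 3 intervals within −0.37 to 0.33). Crb3, an apical polarity protein, rose after CTR9 depletion (54.3 CPM, against 27.7 CPM, 0.97, SE 0.13) and after MYC depletion (55.1 CPM, against 30.7 CPM, 0.84, SE 0.11), and had 0.30 (interval −0.03 to 0.64) after CDC73 depletion. Marveld3, listed for shMYC only, had 0.65 CPM in depleted and 0.43 CPM in control cells and did not pass the test.

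Desmosomal genes did not move as a block in any depletion. Desmoplakin, which links keratin filaments to the desmosome, rose after CTR9 depletion (Dsp, 356 CPM, against 207 CPM in control cells, 0.78, SE 0.10) and fell after CDC73 depletion (114 CPM, against 207 CPM, −0.86, SE 0.15). After MYC depletion Dsp had 217 CPM, against 229 CPM in control cells (−0.08, interval −0.25 to 0.09). Plakoglobin (Jup), shared by desmosomes and adherens junctions, rose after CTR9 depletion (133 CPM, against 68.5 CPM, 0.96, SE 0.11) and after MYC depletion (156 CPM, against 75.8 CPM, 1.04, SE 0.09), and had 0.05 (interval −0.23 to 0.34) after CDC73 depletion. The plakophilins, armadillo proteins of the desmosomal plaque, split: Pkp2 rose after MYC depletion (155 CPM, against 64.4 CPM in control cells, 1.27, SE 0.09) and passed the test in neither PAF1c depletion. Pkp3, a low-expressed gene, fell in all 3, with 3.50 CPM in shCTR9 cells and 7.54 CPM in shLuciferase cells, 4.73 CPM in shCDC73 cells and 7.44 CPM in shLuciferase cells, and 4.58 CPM in shMYC cells and 8.17 CPM in shLuciferase cells. The fall of Pkp3 after CDC73 depletion did not pass with the F distribution (adjusted p = 0.105).

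The ETS factor gene Elf3 had the largest rise of an epithelial member after CTR9 depletion. It had 204 CPM in shCTR9 cells and 66.0 CPM in shLuciferase cells (1.62, SE 0.11), but 43.2 CPM in shCDC73 cells and 66.1 CPM in shLuciferase cells (−0.61, SE 0.15), and 60.8 CPM in shMYC cells and 73.2 CPM in shLuciferase cells (−0.27, SE 0.10, adjusted p = 0.0873 with the F distribution). Klf4, a zinc finger factor of differentiated epithelium whose promoter holds CACGTG, rose after CTR9 depletion (257 CPM, against 117 CPM, 1.13, SE 0.10) and after MYC depletion (216 CPM, against 129 CPM, 0.74, SE 0.10), and fell after CDC73 depletion (75.0 CPM, against 117 CPM, −0.64, SE 0.15). Its relative Klf5 passed the test nowhere, with log2 fold changes of −0.19, −0.22 and −0.19 and intervals within −0.53 to 0.10. Grhl1, a grainyhead factor at under 4 CPM, fell after MYC depletion (1.21 CPM, against 2.94 CPM in control cells, −1.28, SE 0.30) and missed the threshold after CTR9 depletion (0.57, adjusted p = 0.066) and CDC73 depletion (0.58, adjusted p = 0.068). Esrp2, a regulator of epithelial splice forms, rose after CTR9 depletion (79.5 CPM, against 47.4 CPM, 0.75, SE 0.11) and fell after MYC depletion (39.7 CPM, against 52.4 CPM, −0.40, SE 0.11). Its fall after CDC73 depletion (37.0 CPM, against 47.4 CPM, −0.36, adjusted p = 0.044) no longer passed when the fold changes were centred on the median of all genes (adjusted p = 0.0559) or with the F distribution (adjusted p = 0.15).

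Matriptase (St14) and prostasin (Prss8) are membrane proteases of epithelia, held in check by the Kunitz-type inhibitors of the SPINT family. Spint2, the only inhibitor listed, fell after CDC73 depletion (68.7 CPM, against 177 CPM in control cells, −1.37, SE 0.15) and rose after MYC depletion (256 CPM, against 196 CPM, 0.39, SE 0.08). After CTR9 depletion it had 201 CPM, against 178 CPM in control cells (0.18, interval −0.02 to 0.38). Prss8, listed for shMYC only, had 0.58 CPM in depleted and 0.57 CPM in control cells.

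Vimentin, the filament protein of mesenchymal cells, was already abundant in control cells and rose in the lines in which Krt8 rose. Vim had 1833 CPM in shCTR9 cells and 1102 CPM in shLuciferase cells (0.73, SE 0.10), and 1967 CPM in shMYC cells and 1217 CPM in shLuciferase cells (0.69, SE 0.09). In shCDC73 cells it had 1232 CPM, against 1097 CPM in control cells (0.17, interval −0.13 to 0.46). Fibronectin (Fn1), a matrix glycoprotein, had the widest range of the mesenchymal set. Fn1 rose 5.75-fold in shCDC73 cells, to 126 CPM, against 21.9 CPM in control cells (2.52, SE 0.15), and fell to 2.10 CPM in shMYC cells, against 24.4 CPM in control cells, 11.6-fold lower (−3.54, SE 0.19). Its change after CTR9 depletion was small (28.3 CPM, against 22.2 CPM, 0.35, adjusted p = 0.027).

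Sparc, a collagen-binding matrix protein, fell in both PAF1c depletions, with 70.6 CPM in shCTR9 cells and 128 CPM in shLuciferase cells (−0.86, SE 0.11) and with 68.7 CPM in shCDC73 cells and 128 CPM in shLuciferase cells (−0.90, SE 0.15). It rose after MYC depletion (196 CPM, against 142 CPM, 0.47, SE 0.09). Of the regulators that bind CACCTG, Zeb1 fell after CTR9 depletion (19.8 CPM, against 28.8 CPM in control cells, −0.54, SE 0.15), rose slightly after MYC depletion (37.2 CPM, against 31.4 CPM, 0.25, adjusted p = 0.045) and had −0.11 (interval −0.45 to 0.24) after CDC73 depletion. Snai2 stood near the lower end of the tables. It rose to 3.35 CPM in shMYC cells, against 0.64 CPM in control cells (2.40, SE 0.35), and to 1.62 CPM in shCDC73 cells, against 0.57 CPM (1.52, SE 0.41), and had 0.68 CPM in shCTR9 cells, against 0.63 CPM. Tagln, an actin-binding protein of smooth muscle, rose in all 3 depletions (1.65, 0.95 and 0.95 after CTR9, CDC73 and MYC depletion) at no more than 2.09 CPM. With the F distribution, only 1 of the 4 mesenchymal rises after CDC73 depletion (Fn1) and 1 of the 2 mesenchymal falls after CTR9 depletion (Sparc) remained. The rise of Fn1 after CTR9 depletion (adjusted p = 0.126) and those of Zeb1 (adjusted p = 0.144) and Tagln (adjusted p = 0.113) after MYC depletion did not pass either.

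The CTR9-depleted and CDC73-depleted lines differed in their epithelial genes, although both proteins belong to PAF1c. Line, hairpin and subunit cannot be told apart here. No difference between these lines passed against an F distribution with 1 and 4 degrees of freedom at an adjusted p below 0.05. The difference of the log2 fold changes (shCTR9 minus shCDC73) was tested for each gene by an approximate z, adjusted over the 11806 genes in both tables. Of 20 epithelial members, 14 were higher after CTR9 than after CDC73 depletion and none was lower (0 also at an unadjusted p below 0.05). Over all genes 19.4% were higher and 15.1% lower, and the median difference was 0.88 for the epithelial members against −0.00 for all genes. The largest differences were those of Marveld2 (2.39, 95% interval 1.59 to 3.18), Elf3 (2.24, interval 1.88 to 2.60), Klf4 (1.77, interval 1.41 to 2.12), Tjp3 (1.69, interval 0.93 to 2.46), Dsp (1.63, interval 1.29 to 1.98) and Spint2 (1.55, interval 1.19 to 1.90). Smaller ones passed for Esrp2 (1.11), Krt19 (1.08), Ocln (1.07), Jup (0.91), Krt8 (0.85), Cdh1 (0.77), Crb3 (0.67) and Krt18 (0.53).

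Members without a called difference had intervals of unequal width. For F11r the difference was 0.18 (interval −0.17 to 0.54), for Tjp1 0.01 (interval −0.35 to 0.36) and for Klf5 0.03 (interval −0.37 to 0.43). For Grhl1 (−0.01, interval −0.80 to 0.77), Pkp3 (−0.45, interval −1.12 to 0.21) and Pkp2 (0.33, interval −0.04 to 0.70) larger differences are within the interval. Of 7 mesenchymal members, Fn1 (−2.17, interval −2.59 to −1.76) and Cdh2 (−0.76, interval −1.13 to −0.40) were lower after CTR9 than after CDC73 depletion and Vim was higher (0.57, interval 0.21 to 0.92). With F distributions as the reference of the squared z, 11 of the 15 members called higher passed at 1 and 6 degrees of freedom, an alternative chosen after the data were seen, and none at 1 and 4 degrees of freedom, where none of the 11806 genes passed either. At an unadjusted p below 0.05 that strictest reference left 15 members higher and 2 lower, and 1876 of all genes higher and 1398 lower.

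**Figure D3:**
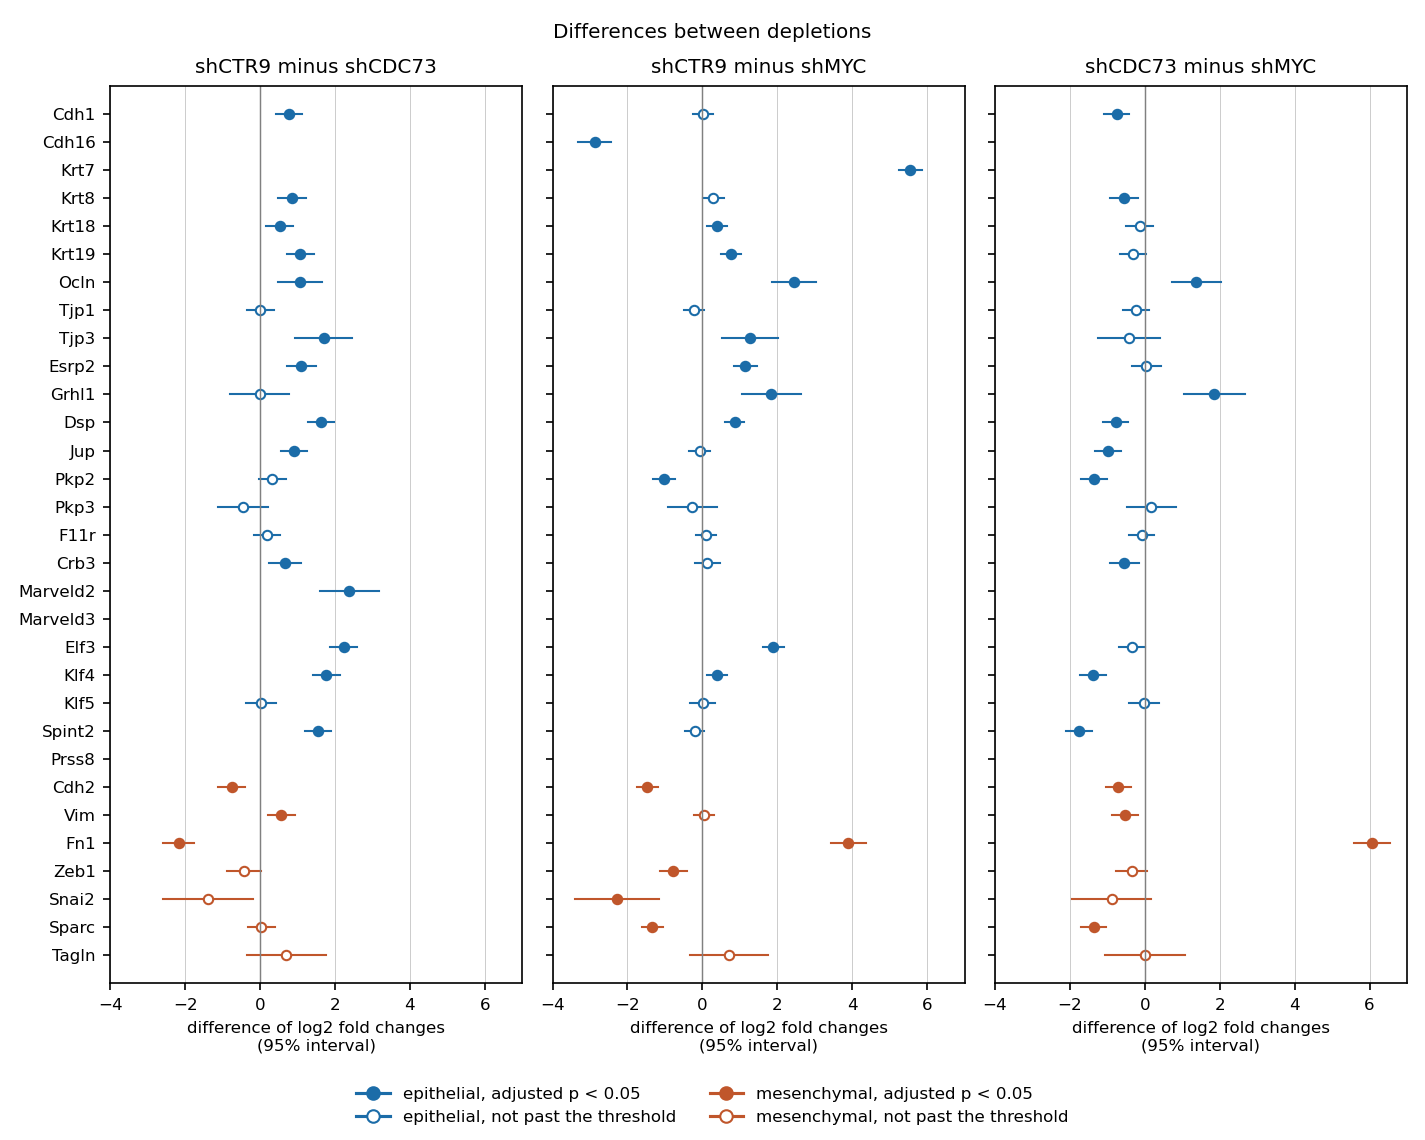
Difference of the log2 fold changes of each member between depletions (points, first named minus second) with its approximate 95% interval (lines), blue for epithelial and orange for mesenchymal genes, filled where the adjusted p was below 0.05. In the left panel 14 of 20 blue points are filled and right of 0, and in the middle and right panels Krt7 (5.55) and Fn1 (3.89 and 6.06) lie farthest from 0.

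The paper compares CTR9 depletion with previous results after MYC depletion, and its shMYC cells come from earlier work. In comparisons with MYC depletion, line and experiment cannot be told apart from the depleted gene. Myc also fell less (log2 fold change −1.64) than Ctr9 (−3.42) or Cdc73 (−3.67) in its own line. Against MYC depletion, the CTR9-depleted cells had 10 of 21 epithelial members higher and 2 lower. Over all 11723 genes 30.8% were higher and 27.9% lower. Krt7 led with a difference of 5.55 (shCTR9 minus shMYC, interval 5.25 to 5.85), followed by Ocln (2.44, interval 1.86 to 3.02), Elf3 (1.89, interval 1.61 to 2.17) and Grhl1 (1.84, interval 1.04 to 2.64). Cdh16 (−2.88, interval −3.33 to −2.43) and Pkp2 (−1.02, interval −1.31 to −0.74) were lower after CTR9 depletion. Of the 7 mesenchymal members 4 were lower after CTR9 than after MYC depletion, namely Snai2 (−2.28, interval −3.40 to −1.15), Cdh2 (−1.47, interval −1.76 to −1.18), Sparc (−1.33, interval −1.61 to −1.06) and Zeb1 (−0.78, interval −1.14 to −0.42), and Fn1 was higher (3.89, interval 3.42 to 4.36).

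Between CDC73 and MYC depletion, 8 of 19 epithelial members were lower in the CDC73-depleted cells and 2 higher, where 30.5% of all 11788 genes were lower and 29.3% higher. The lower ones were led by Spint2 (−1.75, shCDC73 minus shMYC, interval −2.09 to −1.42), Klf4 (−1.38, interval −1.73 to −1.03) and Pkp2 (−1.35, interval −1.70 to −1.01). Grhl1 (1.86, interval 1.05 to 2.67) and Ocln (1.37, interval 0.73 to 2.02) were the higher ones. Fn1 gave the largest difference of the whole list, 6.06 (interval 5.59 to 6.54). Sparc (−1.37, interval −1.71 to −1.03), Cdh2 (−0.70, interval −1.05 to −0.36) and Vim (−0.53, interval −0.87 to −0.18) were lower after CDC73 than after MYC depletion. With the F distribution with 1 and 4 degrees of freedom, the called differences of Vim (adjusted p = 0.0843), Krt8 (adjusted p = 0.0848) and Crb3 (adjusted p = 0.108) did not pass.

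Gene length moved with the fold changes of the PAF1c depletions over all genes. Spearman's rho between gene length and log2 fold change was −0.32 over 11666 genes after CTR9 depletion, −0.28 over 11805 genes after CDC73 depletion and −0.01 over 11774 genes after MYC depletion. Over the listed members it was −0.48 (n = 29), −0.10 (n = 27) and −0.15 (n = 30). Genes measured in the same libraries are not independent points, and the values are a description. After CTR9 depletion the short genes Krt18 (3.81 kb), Crb3 (3.72 kb) and Elf3 (4.90 kb) rose. Of the longer genes, Zeb1 (184 kb) fell, Tjp1 (232 kb) and Cdh2 (220 kb) did not pass the test, and Dsp (47.3 kb) and Fn1 (67.8 kb) rose. The gene with the largest fall, Cdh16, is 22.5 kb long. After CDC73 depletion Krt18 rose and the longer Cdh1 (66.9 kb), Ocln (56.2 kb) and Dsp fell, whereas the short Elf3 fell and Fn1 rose. The 13 mRNAs of the mitochondrial genome, whose share can reflect the quality of an RNA sample, rose in both PAF1c depletions (13 of 13 each, median log2 fold change 0.97 after CTR9 and 1.10 after CDC73 depletion) and had a median of −0.18 after MYC depletion. The part of gene length and of RNA quality in the members' changes was not tested.

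**Figure D4:**
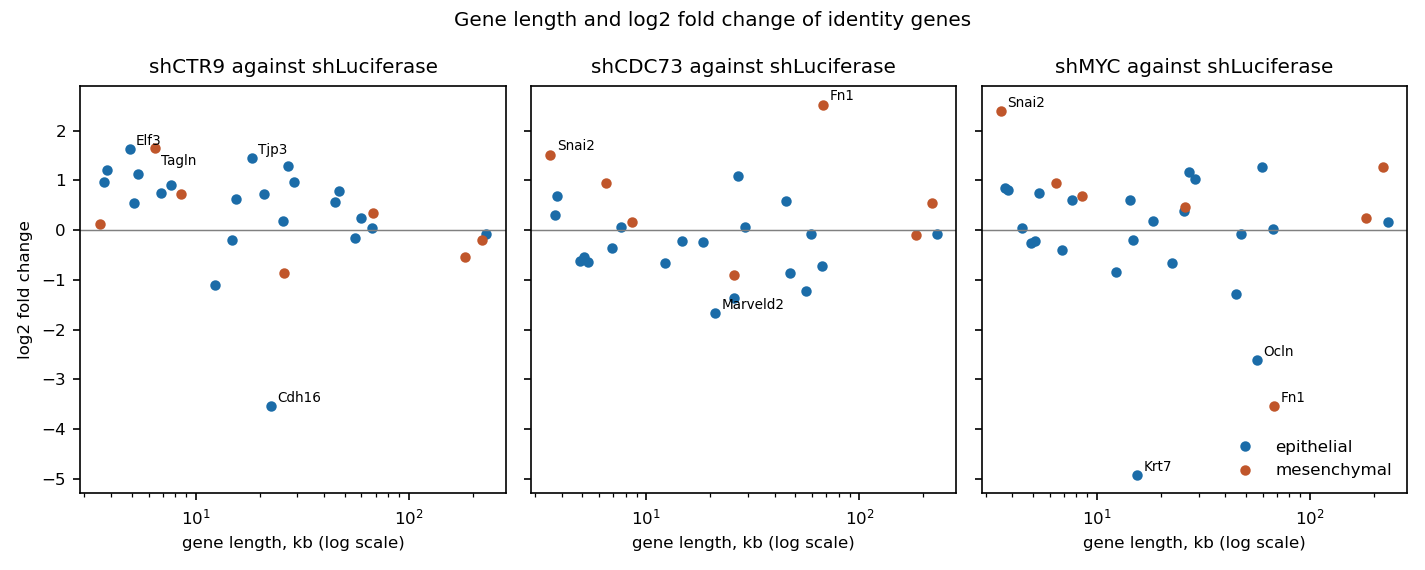
Gene length in kb (log axis) against log2 fold change for each listed member, 1 panel per depletion, blue for epithelial and orange for mesenchymal genes, with names for changes beyond 1.4. In the shCTR9 panel most genes under 10 kb lie above 0 (Spearman's rho −0.48 over 29 members), and in the shCDC73 panel genes of the same length lie on both sides of 0 (−0.10 over 27).

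Further genes were taken from lists written for this tissue with earlier results of these data known, so they are no independent test. Their counts stand beside 31.3% of all genes higher and 31.2% lower after CTR9 depletion. The shares were 29.4% and 31.4% after CDC73 depletion, and 33.2% and 33.8% after MYC depletion. Of 13 listed surface and keratin genes, 8 rose and 1 fell after CTR9 depletion, 1 rose and 9 fell after CDC73 depletion, and 5 of 12 rose and 5 fell after MYC depletion (medians 0.55, −0.71 and −0.04). Tmprss2, a membrane serine protease, had 147 CPM in shCTR9 cells and 87.7 CPM in shLuciferase cells, 16.2 CPM in shCDC73 cells and 88.0 CPM in shLuciferase cells (−2.44, SE 0.16), and 183 CPM in shMYC cells and 97.0 CPM in shLuciferase cells. Krt23 fell to 23.3 CPM in shCDC73 cells, against 114 CPM in control cells (−2.30), and rose in shMYC cells (279 CPM, against 126 CPM, 1.14). The surface glycoprotein gene Cd24a ran against its list, with a rise after CDC73 depletion (764 CPM, against 223 CPM, 1.78), and also rose after CTR9 depletion (0.66) and fell after MYC depletion (−0.37). Of 28 other junction and polarity genes, 12 rose and 8 fell after CTR9 depletion, 4 rose and 7 fell after CDC73 depletion, and 15 of 27 rose and 6 fell after MYC depletion. These are 42.9% higher and 28.6% lower, 14.3% and 25.0%, and 55.6% and 22.2%. Cldn2, a channel-forming claudin, fell in both PAF1c depletions (−2.23 and −1.78 after CTR9 and CDC73 depletion) and rose after MYC depletion (0.94). Cldn6 fell after MYC depletion (−2.24) and rose after CTR9 depletion (0.81). Perp and Itga6 fell after CDC73 depletion (−2.10 and −1.57) and rose after MYC depletion (1.06 and 0.23). After CTR9 depletion Itga6 fell (−0.73), and Perp was slightly lower, just under the threshold (−0.23, adjusted p = 0.0494, likelihood ratio test). Llgl2, a basolateral polarity gene, rose after CTR9 and MYC depletion (1.17 and 1.80).

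Among 12 other epithelial transcription factor genes, 8 rose and 1 fell after CTR9 depletion, 4 rose and 4 fell after CDC73 depletion, and 2 of 11 rose and 5 fell after MYC depletion. Sox9, a factor of pancreatic ducts, had 20.1 CPM in shCTR9 cells and 5.31 CPM in shLuciferase cells, 31.8 CPM in shCDC73 cells and 5.31 CPM in shLuciferase cells, but 1.05 CPM in shMYC cells and 6.07 CPM in shLuciferase cells. It thus rose in both PAF1c depletions (1.92 and 2.58) and fell after MYC depletion (−2.54), the same directions as Fn1 among the members. Foxa2, a factor of endoderm, rose after CTR9 depletion (143 CPM, against 91.4 CPM in control cells) and CDC73 depletion (229 CPM, against 91.1 CPM), and the pancreatic and intestinal factor genes Pdx1 and Cdx2 fell after MYC depletion (−1.13 and −2.32) and rose after CTR9 depletion (0.38 and 0.69). Of the other mesenchymal genes more were called higher than lower after CDC73 depletion (9 of 15 higher, against 29.4% of all genes, and none lower, 1 lower at an unadjusted p below 0.05 in the same likelihood ratio test) and MYC depletion (10 of 14 higher, 71.4% against 33.2% of all genes, and none lower at either p), and went both ways after CTR9 depletion (5 of 12 higher, 5 lower). Col5a1, a fibrillar collagen, rose after CDC73 depletion (13.1 CPM, against 1.76 CPM in control cells, 2.90) and after MYC depletion (6.41 CPM, against 2.04 CPM, 1.65). Of the other regulators of the transition, 2 of 13 rose and 4 fell after CTR9 depletion, 7 of 14 rose and 4 fell after CDC73 depletion, and 2 of 13 rose and 7 fell after MYC depletion. The falls after CTR9 depletion (30.8%) and CDC73 depletion (28.6%) were near the share of all genes. Hmga2, a chromatin protein, fell in all 3 (−1.72, −1.38 and −1.26 after CTR9, CDC73 and MYC depletion).

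Markers of other cells of the pancreas were sparse. Of 12 acinar markers 1 was listed (Cela1, at most 10.3 CPM, in shCDC73 cells, against 3.48 CPM in control cells), of 10 fibroblast markers 2 for shCDC73, 1 for shMYC and none for shCTR9 (at most 2.77 CPM), of 8 leukocyte markers 1 (Cd68, at most 6.51 CPM), and of 9 endocrine and 6 endothelial markers none. Fibroblast-type mRNA at these levels stood beside 1232 to 1967 CPM of Vim in the depleted cells, and the source of the Vim mRNA was not tested. In bulk RNA a change in the share of cells that express a gene cannot be told apart from a change in its level per cell.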

How the data were processed

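RNA of KPC cells was sequenced in 12 libraries, 3 per shRNA. The authors mapped reads to mm10 with Bowtie2 2.3.4.1, which does not split reads over introns, scaled samples to the smallest one, used featureCounts to assign reads to genes, dropped genes below 5 reads and fitted each depletion against shLuciferase in edgeR. The annotation and the strand setting are not given in the sources used here. The deposited tables hold only the results of the authors' comparisons, so these were used as deposited. Fold changes and mean expression are on the log2 scale, as in the authors' deposited tables. The likelihood ratio is a score of the authors' fit. Deposited p-values come from a likelihood ratio test run by the authors, with Benjamini-Hochberg adjustment within a table, and both columns were checked by recomputation. The paper describes the RNA-seq replicates as 3 independent experiments. The tables hold no count per library. By the paper's reporting summary the libraries have similar numbers of reads, except 1 deeper shCTR9 library whose weight in the values was not tested. The median approximate standard error over all genes was 0.139 for shCTR9, 0.175 for shCDC73 and 0.122 for shMYC.

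From these values the level in control cells (2 times the mean level, divided by 1 plus the fold change), the level in depleted cells, an approximate standard error (absolute log2 fold change divided by the root of the likelihood ratio), 95% intervals and the difference between depletions (approximate z, which ignores the shared controls and takes standard errors as known, adjusted over all genes in both tables) were computed with Python 3.11.15, numpy 2.4.6, pandas 2.3.3 and scipy 1.17.1, and drawn with matplotlib 3.10.9. The difference test was also run on simulated fold changes, drawn with the same standard errors that the test uses and without shared controls. The simulation therefore could not check whether standard errors may be taken as known or shared controls ignored. Gene positions, lengths and promoters are from RefSeq (GRCm38), exon lengths from GENCODE M21, and 27 of the 47 members matched the promoter table. All 47 members were described, with the shRNA targets, up to 3 genes per further list and comparison with the smallest adjusted p, some of which are not reported here, and markers of other cell types above 10 CPM. Members and lists were chosen with earlier results of these data known. Alternatives were a threshold of 0.01, centring on the median of all genes, a minimum of 1 CPM, and F distributions as the reference of the test.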

Additional observations from a re-analysis of the deposited data

How the results depend on the processing

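No paired analysis was possible because the tables hold no value per library, and for the same reason no replicate could be left out. A threshold of 0.01, centring on the median of all genes and a minimum of 1 CPM moved none of the 18 counts of members called by more than 1.5 times. No called change or difference of a member reversed its direction under any alternative, and members without a call were not checked for this. With an F distribution with 1 and 4 degrees of freedom, 1 mesenchymal member was lower after CTR9 depletion (2 before) and 1 higher after CDC73 depletion (4 before), and of all members that differed between CTR9 and CDC73 depletion 0 were higher (15 before) and 0 lower (2 before). Over all genes this reference left 2424 higher and 2217 lower after CTR9 depletion (3754 and 3737 before), 2041 higher and 2246 lower after CDC73 depletion (3564 and 3813 before), and 3009 higher and 3080 lower after MYC depletion (4023 and 4092 before). It left 2198 higher and 1928 lower between CTR9 and MYC depletion (3607 and 3272 before), 2068 higher and 2246 lower between CDC73 and MYC depletion (3449 and 3596 before), and 0 and 0 between CTR9 and CDC73 depletion (2287 and 1783 before). With 1 and 6 degrees of freedom, chosen after seeing the data, the last pair was 999 higher and 597 lower, and 9 of the 48 called differences of members lost their call. Of 108 calls among 167 tests of single members, 36 lost the threshold with 1 and 4 degrees of freedom, 11 at 0.01 and 1 after centring, where 1 other test passed (Pkp2 after CTR9 depletion, adjusted p = 0.043). Low genes such as Snai2, Tagln, Grhl1 and Pkp3 have the widest intervals.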

Other observations

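Several genes of intestinal-type epithelium, picked after their values were seen, were expressed beside the ductal keratins. Lgals4, an intestinal galectin, had 1618 CPM in shCTR9 cells and 1107 CPM in shLuciferase cells (log2 fold change 0.55), 393 CPM in shCDC73 cells and 1103 CPM in shLuciferase cells (−1.49), and 721 CPM in shMYC cells and 1221 CPM in shLuciferase cells (−0.76). Krt20, a keratin of intestinal and gastric epithelium, rose after CTR9 depletion (707 CPM, against 295 CPM in control cells, 1.26) and MYC depletion (486 CPM, against 326 CPM, 0.58), and had 0.26 after CDC73 depletion (adjusted p = 0.11). Cdx2, an intestinal transcription factor gene, rose after CTR9 depletion (53.7 CPM, against 33.3 CPM, 0.69) and fell after CDC73 depletion (24.5 CPM, against 33.4 CPM, −0.45) and MYC depletion (7.39 CPM, against 36.8 CPM, −2.32). Cdh17, an intestinal cadherin, fell in all 3 depletions (−0.88, −0.81 and −0.56 after CTR9, CDC73 and MYC depletion). Hnf4a, a nuclear receptor gene of gut and liver epithelium, fell after CDC73 depletion (186 CPM, against 289 CPM, −0.64) and passed the test in neither of the other depletions. All adjusted p-values are from the likelihood ratio test of the deposited tables.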
